A study of Mus musculus with 10 samples.

Results

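Melanoma cells move between a pigmented, dividing state and a less differentiated, invasive state, and a small set of transcription factors is used to tell these states apart. This account covers 10 genes of that set: Mitf, Pax3, Tfap2a, Tbx2, Snai1, Snai2, Zeb1, Zeb2 and Twist1, which encode transcription factors, and Ngfr, which encodes a cell surface receptor. They were taken by symbol for this known role, and all 10 were among the 55385 genes of the deposited tables. RNA was sequenced from cultured melanoma cells of the mouse line WT31 and of its subline WT31_P5IV, with 5 libraries of each. Mice of the genotype Tyr::NrasQ61K/°; INK4a-/- gave rise to WT31, and in them the tyrosinase promoter directs mutant NRAS to pigment cells, so by this genotype cells of both groups carry the NRAS mutation and a loss of INK4a. WT31_P5IV arose from WT31 through 5 rounds of tail vein injection, recovery of liver metastases and expansion in culture. Neither group was treated, and RNA was taken from sub-confluent dishes, not from metastases. Each group is 1 cell line, the libraries are named biological replicates without further detail, and p-values here measure only the spread between these libraries.

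Mitf, with Pax3 and Sox10 above it, drives the pigment cell program, and low Mitf together with high Axl is the usual mark of the invasive state. Among the factors of epithelial-mesenchymal transition (EMT), Zeb2 and Snai2 are normally made by melanocytes, while Zeb1 and Twist1 are known for replacing them in dedifferentiated melanoma. Ngfr, the low-affinity neurotrophin receptor, marks neural crest-like melanoma cells.

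Libraries held 24255389 to 25750639 estimated counts, and 3 counts, taken as the limit of detection for counting error only, were 0.114 to 0.129 CPM (estimated counts scaled to the size of the library). The pigment cell markers Mlana, Dct, Tyr, Pmel, Tyrp1 and Sox10 were expressed in all libraries of both lines, with Sox10, the lowest of them in CPM, which had a mean of 854 ± 69.3 CPM in WT31, and one of 777 ± 39.0 CPM in the subline (SD, n = 5 each). On a principal component analysis of log2 CPM the first component (74.5% of variance) separated the lines, and on the second (6.18%) WT31 replicates 2 and 3 lay apart from the other WT31 libraries. Values without these 2 libraries, an alternative chosen after seeing the data, are given below where they change a call or a direction. In bulk RNA, fewer cells with a transcript and less of it per cell cannot be told apart.

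Of the 10 genes, 8 had enough counts for the test across all genes (edgeR's quasi-likelihood test with Benjamini-Hochberg adjustment over 13620 genes). The adjusted p was under 0.05 for 6 of these 8, beside 68.5% of all tested genes. Tbx2 and Pax3 were the 2 higher in WT31_P5IV, and Ngfr, Snai2, Zeb2 and Tfap2a the 4 lower, where the shares of all tested genes were 34.6% higher and 33.9% lower. Only Snai2 passed a log2 fold change of 1, as did 9.19% of tested genes. The groups did not overlap in CPM for 4 of the 8, namely Snai2, Ngfr, Zeb2 and Tbx2, which is a share near the 54.1% over all tested genes. The median log2 fold change of the 8 was -0.09, beside 0.01 for all tested genes. Twist1 and Snai1 had too few counts for this test and are given below.

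**Figure D1:**
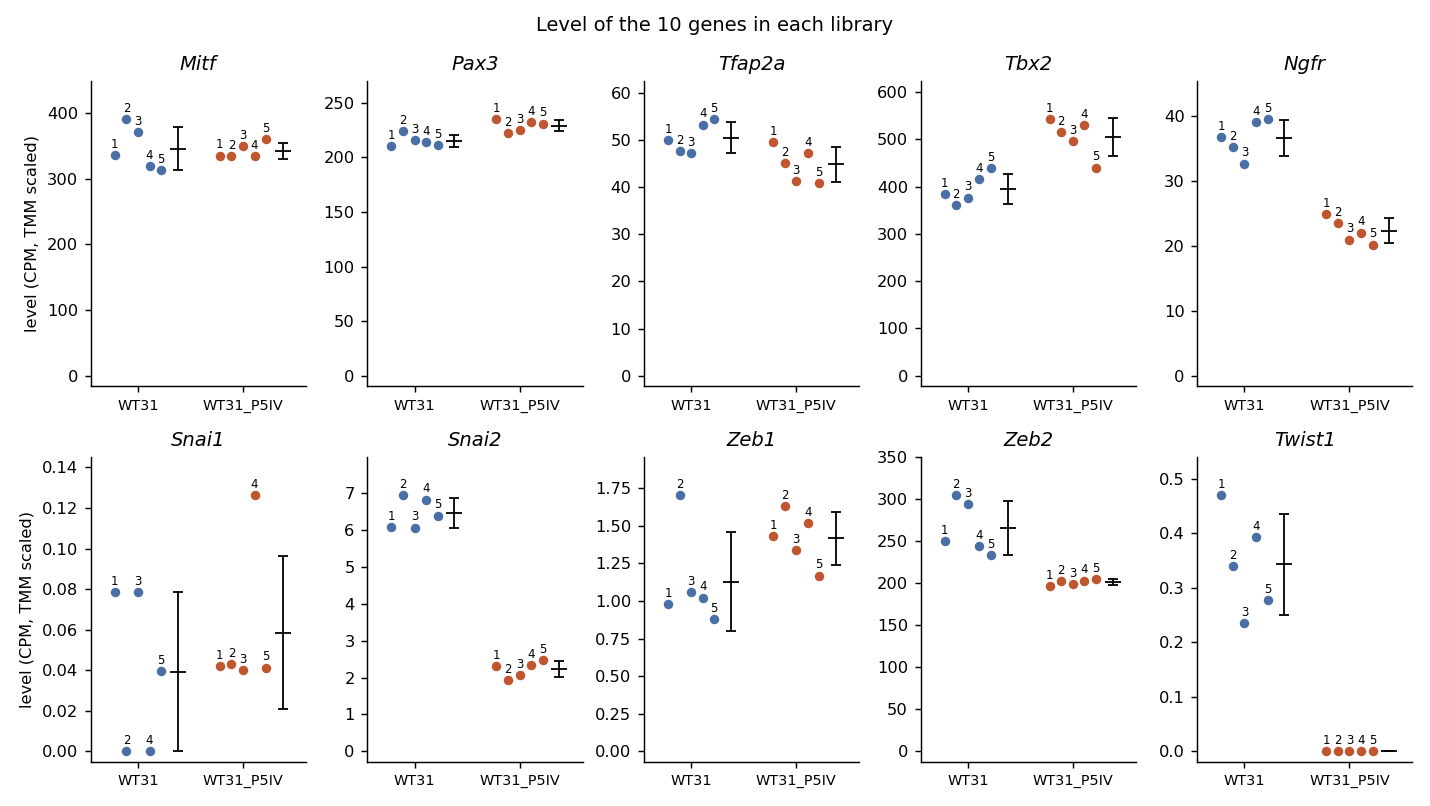
Level of each of the 10 genes in CPM (linear axes that start at 0, scaled by edgeR's TMM factors) in the 5 libraries of WT31 (blue) and of WT31_P5IV (orange). Digits are replicate numbers, and black bars are mean ± SD. The groups are apart for Snai2, Ngfr, Zeb2, Tbx2 and Twist1, while for Mitf the subline lies inside the range of WT31.

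Mitf, the lineage factor that activates the pigmentation genes, did not pass the test between the lines, and its groups overlapped. It measured 336, 390, 370, 319 and 313 CPM in WT31 replicates 1 to 5 and 335, 334, 349, 334 and 360 CPM in WT31_P5IV replicates 1 to 5. Every library of the subline fell inside the range of the parental line, and the spread was wider in WT31 (SD 33.3) than in WT31_P5IV (SD 11.8). The log2 fold change was -0.01 (SE 0.06, edgeR adjusted p = 0.840), with a 95% interval of -0.14 to 0.12 for the difference. Without WT31 replicates 2 and 3, the 2 highest, the log2 fold change was 0.07 (edgeR adjusted p = 0.124). On log2(TPM + 0.1), TPM being estimated counts scaled for transcript length and library size, the median gene shifted by -0.17 and Mitf changed by -0.20 (limma adjusted p = 0.0758), or -0.04 relative to that shift, and 3 of the 5 subline libraries lay below the WT31 range in TPM.

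Mitf lies at chr6:97807052-98021349 on the plus strand (GRCm38, GENCODE M21) and has several alternative first exons, of which the most downstream belongs to the form known from melanocytes. The 250 bases before the most downstream Mitf start in RefSeq (GRCm38.p6, chr6:97991533-97991782, plus strand) are shown because this start is the one tied to the pigment cell state, and because the cyclic AMP response element, TGACGTCA, is the known entry point of hormone signaling to it. Of letter patterns, 6 were searched on both strands of all promoters of this length in the table: the E-box CANNTG, its special forms CACGTG and CATGTG (bound by MITF) and CAGGTG (bound by SNAI and ZEB proteins), TGACGTCA, and GCCNNNGGC (bound by TFAP2A). In the sequence, capitals mark the match to TGACGTCA, 153 bases before the start, a word found in 1.55% of 32807 promoters. No other of the patterns matched there.
Mitf: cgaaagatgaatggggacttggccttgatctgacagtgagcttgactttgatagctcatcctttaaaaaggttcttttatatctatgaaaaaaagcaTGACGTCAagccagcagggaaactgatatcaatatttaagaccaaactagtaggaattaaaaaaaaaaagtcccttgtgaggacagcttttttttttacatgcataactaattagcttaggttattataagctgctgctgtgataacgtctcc

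Pax3, a paired-box factor that activates Mitf and keeps neural crest and melanoblast cells in their lineage, was slightly higher in WT31_P5IV. Its level was 211, 224, 216, 214 and 211 CPM in WT31 and 235, 222, 225, 232 and 231 CPM in WT31_P5IV. WT31 replicate 2 overlapped the subline, and the other 4 WT31 libraries lay below all of it. Its log2 fold change was 0.09 (SE 0.03, edgeR adjusted p = 0.0239). This call depended on the scaling: on TPM, where 32.9% of called genes were higher in place of 50.5%, the log2 fold change of Pax3 was -0.07 (limma adjusted p = 0.204), or 0.09 relative to that shift. It was also lost when any 1 of WT31 replicates 1, 3, 4 or 5 or WT31_P5IV replicates 1, 4 or 5 was left out. The log2 fold change of Pax3 was then 0.068 to 0.082.

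Tfap2a, the AP-2 alpha factor that works with MITF at melanocyte enhancers, was lower in WT31_P5IV. Its level was 50.0, 47.6, 47.3, 53.3 and 54.4 CPM in WT31 and 49.6, 45.1, 41.4, 47.2 and 40.9 CPM in WT31_P5IV. The groups overlapped, with replicate 1 of the subline at the level of the parental line and its replicates 3 and 5 lowest. On the log2 scale Tfap2a changed by -0.17 (SE 0.06, edgeR adjusted p = 0.0179), and -0.25 (edgeR adjusted p = 0.00128) without WT31 replicates 2 and 3. On log2(TPM + 0.1) it was -0.38, or -0.21 relative to the shift of the median gene. With upper-quartile scaling the value was -0.14 and the call was lost (edgeR adjusted p = 0.0537). Transcripts of Tfap2a share 12.7% of their words of 31 bases with other genes, chiefly the antisense genes Gm26688 and Gm47061, a larger share than for any other member. These 2 genes had 103 to 143 and 13 to 44 estimated counts over all libraries, and Gm47061 was higher in WT31_P5IV (log2 fold change 1.22, edgeR adjusted p = 5.16e-05).

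Tbx2, a T-box repressor that holds back senescence genes in melanoma, was the most clearly raised of the 10. It measured 385, 362, 377, 416 and 439 CPM in WT31 and 542, 515, 496, 530 and 440 CPM in WT31_P5IV. All libraries of the subline lay above those of WT31, but replicate 5 of the subline, at 440 CPM, was close to WT31 replicate 5 at 439 CPM. On the log2 scale Tbx2 rose by 0.35 (SE 0.06, 95% interval 0.21 to 0.49, edgeR adjusted p = 1.35e-04). On log2(TPM + 0.1) it was 0.18, or 0.35 relative to the shift of the median gene (limma adjusted p of the unshifted value 0.0211).

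Across the WT31 libraries, Mitf and Zeb2 stood in the same order, highest in replicate 2, then 3, 1, 4 and 5. Tbx2 stood in the reverse order, lowest in replicate 2 and highest in replicate 5. Replicates 2 and 3 are the libraries that stood apart on the second component, and the part of that difference between libraries in these levels was not tested. Without them the log2 fold change was -0.29 for Zeb2 and 0.27 for Tbx2, with edgeR adjusted p of 2.30e-06 and 6.41e-04.

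Ngfr was lower in WT31_P5IV by 0.71 on the log2 scale. Its level was 36.7, 35.1, 32.6, 39.0 and 39.4 CPM in WT31 and 24.9, 23.4, 20.9, 22.0 and 20.2 CPM in WT31_P5IV. The lowest WT31 library was above the highest library of the subline, and the mean went from 36.6 ± 2.81 to 22.3 ± 1.91 CPM (SD, n = 5 each). The log2 fold change was -0.71 (SE 0.07, 95% interval -0.87 to -0.56, edgeR adjusted p = 2.07e-07), larger in size than that of 83.1% of tested genes. Ngfr remained expressed in every library of the subline, with 488 to 592 estimated counts.

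Ngfr has 1 annotated transcript (chr11:95568818-95587735, minus strand). The 250 bases before its RefSeq start (GRCm38.p6, chr11:95587699-95587948, minus strand) are shown because Ngfr had the largest log2 fold change among the tested members that the promoter table holds. Capitals mark its 2 matches to the E-box, which begin 150 and 25 bases before the RefSeq start. GENCODE M21 places the start further upstream, at 95587735, so the nearer match lies inside the annotated transcript. Of all promoters, 66.2% hold at least 1 match to this pattern. Neither match is the special form CAGGTG, which 17.2% of promoters hold. The special form CACGTG (6.02% of promoters), the special form CATGTG (12.3%) and the pattern GCCNNNGGC (13.7%) were not found in this window either.
Ngfr: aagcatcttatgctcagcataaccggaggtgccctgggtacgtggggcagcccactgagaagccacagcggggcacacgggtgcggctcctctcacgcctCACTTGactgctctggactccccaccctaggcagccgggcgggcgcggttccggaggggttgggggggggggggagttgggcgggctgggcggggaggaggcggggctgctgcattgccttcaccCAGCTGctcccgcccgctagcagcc

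Snai2, the zinc-finger repressor that neural crest cells need to migrate and that MITF activates in melanocytes, had the largest change among the 8 tested genes. It measured 6.08, 6.94, 6.06, 6.82 and 6.38 CPM in WT31 and 2.31, 1.94, 2.05, 2.34 and 2.48 CPM in WT31_P5IV, from 154 to 183 and from 45 to 60 estimated counts. The groups were far apart relative to their spread (6.45 ± 0.41 and 2.22 ± 0.22 CPM, SD, n = 5 each). The log2 fold change was -1.53 (SE 0.09, 95% interval -1.75 to -1.32, edgeR adjusted p = 2.40e-09), larger in size than that of 96.2% of tested genes. The tested genes whose log2 CPM followed Snai2 most closely over the 10 libraries were Dnaja3 (Pearson r = 0.998), Gpt2 (0.997) and Dusp10 (0.997). These libraries form 2 separate groups, and 1520 genes had an r over 0.95, so the likeness mostly describes the step between the lines.

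Snai1, the paralog of Snai2 that represses E-cadherin in EMT, was at the limit of detection in both lines. It had 2, 0, 2, 0 and 1 estimated counts in WT31 and 1, 1, 1, 3 and 1 in WT31_P5IV. No library exceeded 3 counts, the groups overlapped, and no fold is given (two-sided exact permutation test of CPM, p = 0.325, where 0.00794 is the smallest p that 5 against 5 libraries allow).

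Zeb2, the zinc-finger E-box repressor needed for melanocyte differentiation, was lower in WT31_P5IV. Its level was 251, 305, 295, 245 and 234 CPM in WT31 and 197, 203, 199, 203 and 205 CPM in WT31_P5IV. The groups did not overlap, and the subline libraries lay close together (SD 3.44, against 31.9 in WT31). Its log2 fold change was -0.40 (SE 0.06, 95% interval -0.55 to -0.25, edgeR adjusted p = 6.80e-05). Its antisense gene Zeb2os, which shares sequence with it, had 117 to 145 counts in WT31 and 94 to 109 in WT31_P5IV (log2 fold change -0.28, edgeR adjusted p = 0.0163). Without a stated strand setting, reads of the pair cannot be told apart where they overlap, but Zeb2 itself had 4684 to 8062 counts.

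Zeb1, the paralog of Zeb2 known for dedifferentiated melanoma, was low in both lines. It measured 0.980, 1.70, 1.06, 1.02 and 0.881 CPM in WT31 and 1.43, 1.63, 1.34, 1.52 and 1.17 CPM in WT31_P5IV. WT31 replicate 2 was above the whole subline, while the other 4 WT31 libraries were below it. The log2 fold change was 0.32 (SE 0.19, 95% interval -0.12 to 0.76, edgeR adjusted p = 0.152). This call rested on that library: without WT31 replicate 2 the log2 fold change was 0.51 and passed the test, as it did without WT31 replicates 2 and 3 (0.54, edgeR adjusted p = 0.0243). Zeb1 was 0.64 with an offset for transcript length, 0.40 on log2(TPM + 0.1), or 0.57 relative to the shift of the median gene, and 0.14 on log2(TPM + 1), none of which passed the test. These values come from 22 to 45 estimated counts a library.

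Twist1, a basic helix-loop-helix factor that binds E-boxes and acts in neural crest migration and EMT, was counted in every WT31 library and in no library of the subline. It had 12, 9, 6, 10 and 7 estimated counts in WT31 and 0 in each of the 5 WT31_P5IV libraries. Against the limit of 3 counts a library, Twist1 was at least 2.74-fold lower in WT31_P5IV. The CPM of the groups differed (0.343 ± 0.093 CPM in WT31, SD, n = 5; two-sided exact permutation test, p = 0.00794, the smallest possible), and a fit of all genes with at least 1 count gave an edgeR adjusted p of 7.95e-08. At this depth a count of 0 does not show that Twist1 is absent, and even in WT31 its TPM was above that of only 4.60% of tested genes.

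Twist1 has 1 annotated transcript and shares no word of 31 bases with other genes. The 250 bases before its RefSeq start (GRCm38.p6, chr12:33957421-33957670, plus strand) are shown since this was the member that fell below detection. None of the patterns listed for Mitf matched in this window, so it is printed without capitals.
Twist1: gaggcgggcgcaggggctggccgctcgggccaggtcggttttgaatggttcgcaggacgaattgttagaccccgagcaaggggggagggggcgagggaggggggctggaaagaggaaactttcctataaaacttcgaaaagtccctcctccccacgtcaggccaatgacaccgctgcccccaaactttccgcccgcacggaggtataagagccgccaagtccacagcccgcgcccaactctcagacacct

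**Figure D2:**
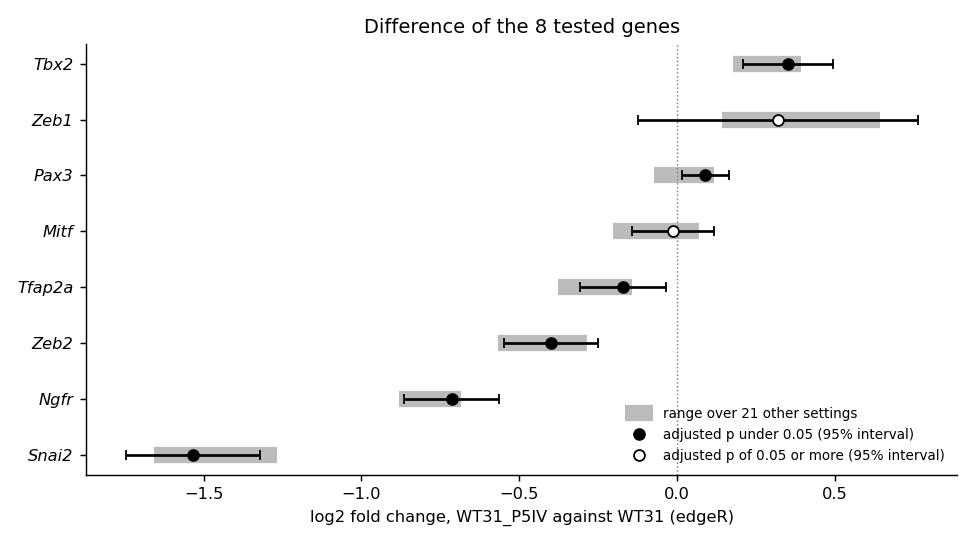
Log2 fold change of WT31_P5IV against WT31 for the 8 tested genes, with the 95% interval of the edgeR fit (black) and the range over the other settings tried (grey). Filled circles have an adjusted p under 0.05. Snai2, Ngfr, Zeb2 and Tfap2a lie below 0 and Tbx2 above 0 over their whole range, while the ranges of Mitf and Pax3 cross 0.

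Levels of different genes were compared in TPM, which accounts for transcript length. In WT31 the order was Tbx2 (172 ± 8.74 TPM), Mitf (161 ± 23.7), Pax3 (94.7 ± 4.62), Zeb2 (67.5 ± 11.4), Tfap2a (30.7 ± 1.35), Ngfr (16.8 ± 0.890), Snai2 (5.28 ± 0.379), Zeb1 (0.407 ± 0.194), Twist1 (0.357 ± 0.096) and Snai1 (0.041 ± 0.042), as mean ± SD of 5 libraries. Tbx2 and Mitf overlapped, as did Zeb1 and Twist1, while the other neighbours in this order were separated in all libraries. In WT31_P5IV the order of the first 8 was the same, at 195 ± 13.2 for Tbx2, 139 ± 5.61 for Mitf, 90.0 ± 3.76 for Pax3, 45.1 ± 2.47 for Zeb2, 23.7 ± 1.91 for Tfap2a, 9.07 ± 0.684 for Ngfr, 1.61 ± 0.182 for Snai2 and 0.546 ± 0.139 TPM for Zeb1. Tbx2 and Mitf no longer overlapped in the subline, and Twist1 at 0 was below Snai1.

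Ratios within a library cancel its scaling apart from the pseudocount, and 3 were computed as log2 ratios of TPM + 0.1. The ratio of Zeb2 to Zeb1, often used to follow the switch between states, fell from 7.12 ± 0.57 to 6.15 ± 0.38 (SD, n = 5 each; exact permutation p = 0.0238, adjusted over the 3 ratios 0.0238). The ranges overlapped, from 6.18 to 7.67 in WT31 and from 5.78 to 6.58 in WT31_P5IV, so Zeb2 stayed far above Zeb1 in both lines. Zeb1 was low enough for the pseudocount to matter, and the difference was -0.97 with it, -1.08 without it (exact permutation p = 0.0317) and -0.72 on CPM (exact permutation p = 0.00794). The ratio of Mitf to Axl rose from 4.42 ± 0.19 to 5.56 ± 0.16 (exact permutation p = 0.00794, adjusted 0.0119), with no overlap. In this pair Mitf did not pass the test, and Axl, a receptor tyrosine kinase of the invasive state, fell from 18.7 ± 0.97 to 7.82 ± 0.34 CPM (log2 fold change -1.26, SE 0.06, edgeR adjusted p = 9.90e-11). The ratio of Snai2 to Snai1 went from 5.30 ± 0.53 to 3.49 ± 0.29 (exact permutation p = 0.00794, adjusted 0.0119), but since Snai1 was at the limit of detection this ratio follows Snai2 and the pseudocount.

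An estimated count divided by its TPM is proportional to the mean length of the transcripts to which reads were assigned, so it shows whether a gene's mix of transcripts changed. None of the 8 genes passed this test (limma, adjusted p from 0.230 to 0.999), beside 7.4% of 12326 genes. At an unadjusted limma p under 0.05 there were 2, Pax3 and Tfap2a. The implied length of Mitf was 3414 ± 82.5 bases in WT31 and 3460 ± 64.0 bases in WT31_P5IV, and that of Zeb2, which has 29 annotated transcripts, was 6110 ± 185 and 6120 ± 190 bases. Zeb1 varied most, with 2319 bases in WT31 replicate 4 against 4791 to 5801 bases in the other WT31 libraries, and 3110 to 4620 bases in WT31_P5IV. Without WT31 replicate 4, Zeb1 alone of the 8 was called, at -0.59 on the log2 scale. For Ngfr, Snai2 and Tbx2, with 1 transcript each, the annotated lengths of 3446, 2021 and 3626 bases came back, which checks the calculation and not the genes.

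The genes around each member were described for position. Snai2 lies on chromosome 16 (chr16:14705852-14709385, plus strand), where the other 414 tested genes had a median log2 fold change of -0.42, with 42 called higher and 282 lower. Within 1 Mb of Snai2, 13 tested genes had a median of -0.58, with 1 higher and 9 lower, so Snai2 was lower than its surroundings, which were themselves low. Mitf lies on chromosome 6, where the other 676 genes had a median of 0.28 (401 higher, 94 lower), but the 7 within 1 Mb of Mitf had a median of -0.22. Ngfr and Tbx2, both on chromosome 11, went in opposite directions, and their chromosome had a median of 0.00.

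**Figure D3:**
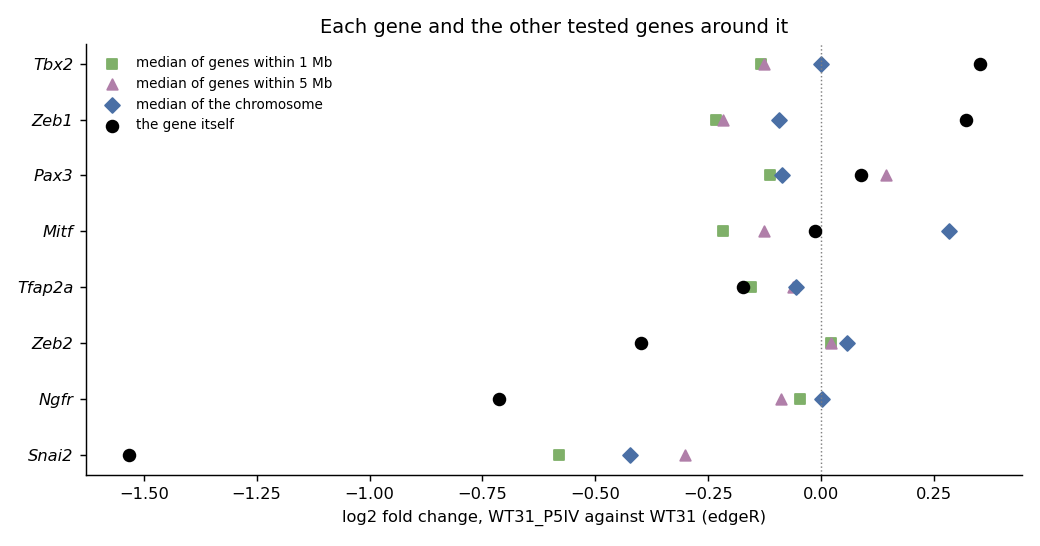
Log2 fold change of the 8 tested genes (black circles) beside the median of the other tested genes within 1 Mb (squares), within 5 Mb (triangles) and on the whole chromosome (diamonds). Snai2 lies on a chromosome whose median is below 0 and Mitf on one whose median is above 0, while Ngfr and Zeb2 lie apart from medians near 0. Tbx2 lies above its chromosome median of 0.00 and above medians of -0.13 within 1 Mb and within 5 Mb.

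Close relatives of the members showed the largest differences among the genes examined. Tbx3, the T-box paralog of Tbx2, had 212 to 249 estimated counts in WT31 libraries and 1 to 3 in WT31_P5IV (log2 fold change -7.07, edgeR adjusted p = 1.49e-13). From the summed counts, 1152 against 8, Tbx3 was 135-fold higher in WT31 (95% exact interval 68.2 to 313, counting error only), so the 2 T-box paralogs went in opposite directions. Twist2, the paralog of Twist1, had 93 to 136 counts in WT31 and 0 to 3 in WT31_P5IV, a ratio of 65.6 (95% exact interval 33.1 to 153; log2 fold change -6.04, edgeR adjusted p = 1.91e-10). Both Twist genes were thus lower in the subline, although Twist2 shares 46.0% of its words of 31 bases with Gm29100 on the other strand, which leaves its counts uncertain. Of the 12 paralogs only these 2 had enough counts for the test, and Snai3, Scrt1, Scrt2, Pax7, Tfap2c, Tfap2d and Tfap2e were at or under 3 counts in all libraries. Tbx4, named after its values were seen, went the other way, with 1 or 2 counts in WT31 libraries and 6 to 10 in WT31_P5IV (two-sided exact permutation test of CPM, p = 0.00794). Of the relatives of Mitf, Tfe3 was lower (log2 fold change -0.18, edgeR adjusted p = 0.00161), Tfeb did not pass (0.14, edgeR adjusted p = 0.0577) and Tfec was at or under 1 count. The Tfeb call depended on the setting: it passed as higher with upper-quartile scaling (0.17, edgeR adjusted p = 0.0360), and also without WT31 replicate 4 (0.15), WT31 replicate 5 (0.16) or WT31_P5IV replicate 3 (0.16), whereas on TPM it was -0.10, or 0.07 relative to the shift of the median gene.

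Of 13 genes that regulate Mitf, 3 were higher and 7 lower (median log2 fold change -0.14), beside 34.6% and 33.9% of all tested genes. Sox10, which activates Mitf together with Pax3, was slightly lower with overlapping groups (log2 fold change -0.14, edgeR adjusted p = 0.0373), a call lost with upper-quartile scaling and when any 1 of WT31 replicates 4 or 5 or WT31_P5IV replicates 2, 3 or 5 was left out (adjusted p 0.0601 to 0.0775). Pou3f2, a POU factor known for repressing Mitf in invasive melanoma cells, fell from 10.1 ± 1.09 to 1.84 ± 0.27 CPM (log2 fold change -2.45, edgeR adjusted p = 1.13e-10), and Sox9 by 1.03. Of 19 tested pigment genes and MITF targets, 8 were higher and 10 lower with a median of -0.15. All tested genes were likewise split, with 34.6% higher and 33.9% lower. On TPM, where the median gene shifted by -0.17, 5 of these targets were higher and 11 lower. Pmel, which forms the melanosome fibrils, rose by 1.22 and the ion channel gene Trpm1 fell by 1.10 on the log2 scale, while the melanosome gene Mlana was at 1991 ± 209 and 2005 ± 27.1 CPM (log2 fold change 0.01, edgeR adjusted p = 0.888, but -0.16 on TPM, close to the shift of the median gene). Without WT31 replicates 2 and 3 Mlana was called lower (log2 fold change -0.10, edgeR adjusted p = 0.0184). The unshifted value on log2(TPM + 0.1) was also called lower (limma adjusted p = 0.0214), but it was 0.0033 relative to the shift. Dct, an enzyme of melanin synthesis, rose (log2 fold change 0.80, edgeR adjusted p = 2.72e-09).

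Of 17 tested genes of the Mitf-low invasive program, 4 were higher and 10 lower, beside 34.6% and 33.9% of all tested genes. The median log2 fold change of the 17 was -0.66, the lowest of the lists with more than 2 tested genes. Tnc, a matrix glycoprotein, fell most (log2 fold change -4.18, from 14.2 ± 1.55 to 0.783 ± 0.114 CPM), followed by Ccn2 (-1.46), Axl (-1.26) and the matrix gene Tgfbi (-1.06). The tested genes that rose did so by less than 1 on the log2 scale. Among them, named after their values were seen, were the matrix gene Thbs1 (0.40), the integrin gene Itga5 (0.66) and the hyaluronan receptor gene Cd44 (0.56). Lox, a gene of this list also named after its values were seen, had too few counts for the test. It had 0 to 2 counts in WT31 libraries and 5 to 8 in WT31_P5IV (two-sided exact permutation test of CPM, p = 0.00794). Of 13 neural crest genes, the program that Ngfr marks, 5 were higher and 5 lower (median -0.02), beside 34.6% and 33.9% of all tested genes. Gap43, a growth cone protein, went from 16 to 24 counts in WT31 to 0 to 3 in WT31_P5IV, and the cadherin gene Cdh6 fell by 1.09, while the water channel gene Aqp1 rose by 1.15 on the log2 scale.

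Of 24 targets of the EMT factors, epithelial and mesenchymal, only 5 were tested, 2 higher and 2 lower. In all libraries 13 were at or under 3 counts, among them the epithelial genes Epcam, Krt8, Esrp1 and Dsp. Tjp1, a tight junction gene named after its values were seen, was well expressed and fell from 164 ± 18.5 to 115.5 ± 2.57 CPM (log2 fold change -0.51, edgeR adjusted p = 4.66e-06). Cdh1, the E-cadherin gene repressed by all 5 EMT factors, had too few counts for the test across all genes. It had 8 to 11 counts in WT31 and 3 to 8 in WT31_P5IV (two-sided exact permutation p = 0.0238), with overlapping groups. Its relation to the levels of the EMT factors was not tested. Cdh2, the N-cadherin gene, was slightly higher with overlapping groups (log2 fold change 0.20, edgeR adjusted p = 0.0109). This call was lost on log2(TPM + 0.1), where the log2 fold change was 0.0080 (limma adjusted p = 0.932), or 0.18 relative to the shift. It was also lost with limma voom without scaling or filter (log2 fold change 0.12, limma adjusted p = 0.103). Vim was slightly lower (log2 fold change -0.16, edgeR adjusted p = 0.00277). Grhl1, an epithelial grainyhead factor, rose by 1.18 from 9 to 25 counts in WT31 to 24 to 37 in the subline.

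Bdnf, a neurotrophin that Ngfr binds, had 0 to 2 estimated counts in WT31 libraries and 0 to 5 in WT31_P5IV. Of 14 tested co-receptors and adaptors of Ngfr, 5 were higher and 8 lower (median log2 fold change -0.17), beside 34.6% and 33.9% of all tested genes. Sortilin, encoded by Sort1 and named here after its values were seen, forms the proneurotrophin receptor with Ngfr and rose from 435 ± 19.5 to 732 ± 62.1 CPM (log2 fold change 0.75, edgeR adjusted p = 1.85e-08), opposite to Ngfr. Of 16 tested cofactors of the transcription factors, 1 was higher and 9 lower (median -0.20), beside the same 34.6% and 33.9%. Of 6 genes listed as targets or partners of Tbx2 in repression, none was higher and 3 were lower (median -0.11), among them Egr1 (log2 fold change -1.12). Cdkn2a, the locus of INK4a, had 71 to 84 counts in WT31 and 63 to 84 in WT31_P5IV, and whether these counts lie outside the deleted part was not tested.

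**Figure D4:**
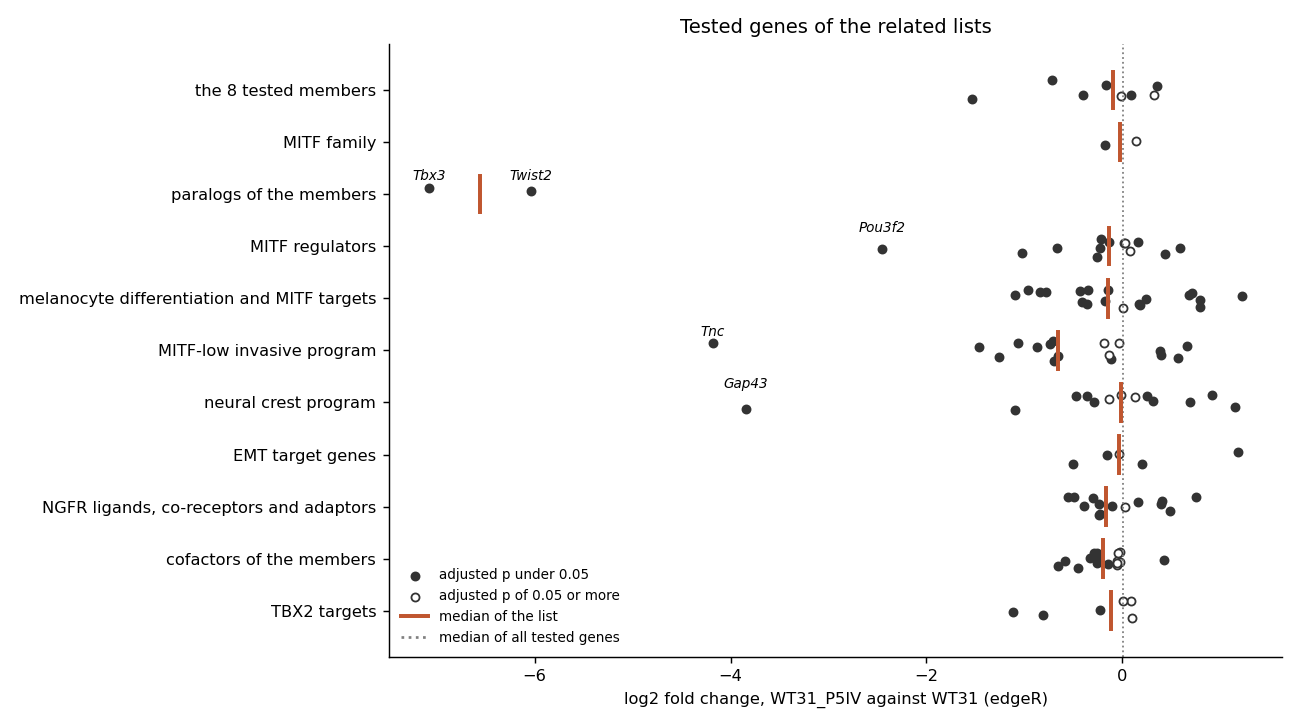
Log2 fold change of WT31_P5IV against WT31 (edgeR) for the tested genes of each list, where points are genes, filled where the adjusted p is under 0.05, and red bars are medians. Names are given below -2. The median is lowest for the pair of paralogs, Tbx3 and Twist2, followed by the Mitf-low invasive program at -0.66, and the dotted line is the median of all tested genes, 0.01.

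Markers of other cells that a culture grown from liver metastases could hold were read beside these results. The study also stained passaged cells for such markers as a check of purity, which was not analysed here. Of 6 hepatocyte markers 1 was tested and did not pass (Ttr, log2 fold change 0.26, edgeR adjusted p = 0.438), and their summed level was 0.442 to 0.875 TPM in WT31 and 0.566 to 1.49 TPM in WT31_P5IV. Of 6 macrophage and leukocyte markers Ptprc, Adgre1, Cd14 and Cd3e were at or under 3 counts, while Cd68, which other cells also express in lysosomes, rose by 1.45 on the log2 scale, with summed levels of 1.65 to 4.50 and 6.25 to 9.84 TPM. Of 6 endothelial markers none had enough counts (0.0694 to 0.353 and 0.0645 to 0.229 TPM). Of 6 stellate cell and fibroblast markers Acta2 and Col1a1 rose, by 1.47 and 1.00, at 0.605 to 1.10 and 1.14 to 1.55 TPM in sum. Lrat, Dcn, Des and Lum had too few counts for the test, with 0 to 8, 1 to 8, 3 to 8 and 0 to 3 estimated counts a library and groups that overlapped, and the part of such cells in the results was not tested. Of 6 Schwann cell markers, which melanoma cells share in part, 1 was higher and 3 lower (299.8 to 346.7 and 199.6 to 209.3 TPM), in the direction of Ngfr, and their part in its change was not tested.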

How the data were processed

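The authors trimmed reads with Trim Galore and assigned them to GRCm38 transcripts with kallisto (version 0.4.6 per the labels), and deposited estimated counts and TPM values, each summed per gene. The annotation release and strand setting were not given in the sources used here, and symbols, positions and transcripts were taken from GENCODE M21, matched by Ensembl identifier for 55144 of 55385 genes. Counts were rounded, filtered with filterByExpr, scaled by TMM and tested with edgeR 4.0.16 (glmQLFit, glmQLFTest) in R 4.3.3, and p-values were adjusted after Benjamini and Hochberg over every tested gene. The test was tried on simulated data, where it found 87.5% of 200 changed genes among 13620 with 9 false calls. Limma 3.58.1 was used for implied transcript length, and exact permutation tests for single values. Implied length was calibrated on genes with 1 transcript and needed at least 10 counts in every library. Replicate libraries differed by more than counting noise (chi-square per degree of freedom 2.37 to 22.6), so none was counted as a duplicate.

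The 10 genes and the lists were chosen with earlier results of these data known. From each list, genes are named where the adjusted p was under 0.05, the log2 fold change at least 1 in size and the groups apart, up to 4 in each direction, together with Sox10, Axl, Cdh1, Cdh2, Vim, Twist2, Tbx3, Mlana, Dct and Bdnf and, for the called member with the largest change, the 3 genes most like it. Tfe3, Tfeb, Tbx4, Thbs1, Itga5, Cd44, Lox, Tjp1, Sort1, Cdkn2a and Ttr lie outside this rule. Alternatives were DESeq2 1.42.0, limma voom, upper-quartile scaling, other filters, an offset for length, limma on log2 TPM with pseudocounts of 0.1 and 1, the replicate number as a block, and each library left out in turn. The RefSeq promoter table held 6 of the 10 genes, Zeb2, Snai1, Mitf, Ngfr, Twist1 and Tfap2a, of which 3 are printed. The other list genes enter only the counts, and some results are not reported here.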

Additional observations from a re-analysis of the deposited data

Results flagged for a closer look

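Zeb1 in WT31 replicate 2 stood apart from the other WT31 libraries, at 1.70 CPM against 0.881 to 1.06 CPM in the other 4. Its distance from the nearest library was 0.783 of the range of the group, above the 0.71 that marks a lone value among 5. Chance marks about 1 in 20 groups in this way, and 45 estimated counts lie behind this value.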

How the results depend on the processing

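Ngfr, Snai2, Zeb2 and Tbx2 kept their direction and their call under all 21 alternatives each, as did Twist1 under each library left out. On log2(TPM + 0.1), which shifted the median gene by -0.17, Tbx2 was 0.18, Tfap2a -0.38 and Mitf -0.20. Mitf, not called in any, changed sign with upper-quartile scaling (0.015) and without WT31 replicates 2 and 3 (0.070), and ranged from -0.062 to 0.021 with single libraries left out, the latter without WT31 replicate 2. Zeb1 gained a call without WT31 replicates 2 and 3 (0.54) and ranged from 0.23 to 0.51 with single libraries left out, with 0.64 under the length offset and 0.14 on log2(TPM + 1). Pax3 lost its call with all genes of at least 1 count (0.034), with a length offset (0.072) and with limma voom without scaling or filter (0.019), and was -0.073 and -0.072 on TPM with pseudocounts of 0.1 and 1. Single libraries left out gave Pax3 0.068 to 0.095, and the call was lost without WT31 replicates 1, 3, 4 or 5 or WT31_P5IV replicates 1, 4 or 5. Under each of these settings the number of members called higher was 1 in place of 2. Tfap2a lost its call with upper-quartile scaling (-0.14). The cause was not tested. Implied length gave 1 call (Zeb1) without WT31 replicate 4 and 0 with each other library left out. Implied lengths that changed sign were all near 0: Mitf -0.0056 without WT31 replicates 2 and 3, Zeb2 2.49e-04 at 50 counts or more, Ngfr 5.02e-04, Zeb2 0.00182 and Tbx2 3.88e-04 when centred on all tested genes, and Zeb2 -0.013 to 0.014 over single libraries left out, above 0 without WT31 replicate 4 or 5 or WT31_P5IV replicate 3 or 5. Same-numbered libraries did not deviate together (r over 0.1 in 1 of 5 pairs, with 2 of 5 closest to their own number), so the numbers were not used for pairing. These are the numbers of the sample titles, and the labels of the WT31 files give other ones, so the numbering itself is uncertain. With the replicate number as a block, 2 members were higher and 4 lower, as without it, and 9380 genes were called in place of 9327, and Tfeb gained a call (0.14, edgeR adjusted p = 0.0157). At this depth Snai1 and Twist1 in the subline were at or under the limit of detection.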
